A study of Rattus norvegicus with 12 samples.

Results

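Rat lungs given bleomycin and then nintedanib were compared with saline-treated lungs, to ask what differed from an uninjured lung at the end of drug treatment. The comparison used 8 of the 12 animals of the study, 4 in the NINT group and 4 in the SAL group, taken by their labels. All were male Sprague-Dawley rats, and each library came from the homogenised right lung of 1 animal, read near the 3′ end of polyadenylated transcripts with the QuantSeq FWD kit. NINT animals received bleomycin into the trachea at 1 U/kg on day 0 and again on day 4, then nintedanib by mouth at 100 mg/kg daily for 3 weeks from day 7. SAL animals received saline into the trachea on the same days and oral methylcellulose, the drug's vehicle, over the same weeks. A further 4 animals, the BLM group, received bleomycin and vehicle. For some of the genes and identifiers their levels are given beside the others, without a test. No group received nintedanib without bleomycin. In NINT against SAL the effects of bleomycin and of the drug cannot be told apart. All groups ended on day 28, and the labels give animals of different groups the same replicate numbers without saying that they were paired.

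Bleomycin breaks DNA, and instilled into the airway it injures the alveolar epithelium, draws in macrophages and is followed by fibroblast activation and collagen deposition. Nintedanib inhibits the receptor tyrosine kinases of vascular endothelial growth factor, platelet-derived growth factor and fibroblast growth factor, and is a licensed treatment of pulmonary fibrosis. Fibrotic rodent lung is known for transcripts of matrix proteins such as fibronectin and collagens, and for macrophages that express osteopontin and Gpnmb.

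Gene names in the text are not verified. Neither the deposited table nor the reference table paired Ensembl identifiers with names (0 of 32623 identifiers matched), so names were recalled from general knowledge of the rat annotation, without a table to check them. Of 107 pairs of name and identifier recalled, 32 were left out, in part after the mean levels over the 12 libraries had been looked at, and 75 were kept. Among those left out, 2 identifiers were not in the table, 6 had a mean under 1 CPM and 1 had been recalled for 2 different genes, so the recall held errors, and some of the 75 names may be wrong too. A level or a change that fits a name is no evidence for it, since implausible levels were among the reasons for leaving a pair out. Each value is a measurement of the identifier printed beside the name at its first mention outside the opening and the captions, and what is said of a gene's function holds only if the name is right. The 75 cover 51 of the 418 genes in 39 lists of pathways and cell types, together with 24 others, of which 13 were recalled as the protein-coding genes of the mitochondrial genome. The other identifiers are described by size, abundance and consistency, and 4 of them are printed.

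Total counts ran from 16572004 to 18586133 in SAL and from 17697037 to 21343622 in NINT, and 18891 to 19205 and 18637 to 19138 identifiers had a count. For neither measure, nor for the share of counts in the 10 most abundant identifiers, did the difference pass a test against the spread between animals (exact permutation tests, two-sided, p = 0.114, 0.2 and 0.571, adjusted p = 0.3, 0.3 and 0.571 over 3 comparisons; the smallest possible p is 0.0286). TMM factors, which scale libraries by the bulk of their genes, lay at 1.02 to 1.05 in SAL and at 0.932 to 0.992 in NINT and did not overlap. Levels are in CPM, the usual depth-scaled unit of count data, computed after this adjustment. Genes named as alveolar markers were abundant in every library: Ager (ENSRNOG00000000439), a type 1 cell gene, stood at 2624 to 2762 CPM in SAL and 2617 to 3141 CPM in NINT, and Sftpa1 (ENSRNOG00000011438), a type 2 cell surfactant gene, at 5962 to 6937 and 7811 to 9036 CPM. Since recalled names were screened in part on mean level, these levels are no check of the libraries.

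Of 14664 identifiers tested, 4248 (29.0%) were called different in NINT against SAL, at an adjusted p under 0.05 in edgeR's quasi-likelihood test fitted to the 8 libraries. The called identifiers split into 1990 higher (13.6%) and 2258 lower (15.4%) in NINT. Most of the differences were small. Called identifiers had a median log2 fold change of 0.49 in size, and 649 (4.43% of those tested) reached 1, of which 212 were higher (1.45%) and 437 lower (2.98%). The split by direction depended on the scaling: when libraries were scaled by size alone, 1053 were higher and 3061 lower, and the median log2 fold change of all tested identifiers moved from 0.02 to -0.08. In a fit of all 12 libraries, in which the BLM animals share the estimate of spread, 1391 were called.

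Falls between 1 and 2 in log2 size outnumbered rises of that size, whereas rises of 2 or more outnumbered such falls. Among the higher identifiers, 63.1% had a log2 fold change under 0.5, 26.3% lay between 0.5 and 1, and 23 reached 2. Among the lower ones 40.2% were under 0.5, 40.5% between 0.5 and 1, and 12 reached 2 in size. The median level of the 425 falls between 1 and 2 was 2.13 CPM, against 7.60 CPM for the 189 rises of that size.

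The share of calls that were higher grew with abundance. With the tested identifiers in 5 equal classes by mean level, 16.3% of the lowest class (0.360 to 2.65 CPM) were called, 99 higher and 378 lower. In the highest class, above 55.7 CPM, 43.8% were called, 766 higher and 520 lower. The median standard error of the log2 fold change was 0.30 in the lowest class and 0.07 in the highest. The percentage of calls that were higher rose from class to class, from 20.8% to 59.6% with TMM factors and from 13.7% to 33.4% with library size, where falls were the majority in every class. Of the 91 identifiers with at least 1000 CPM, 45 were called higher and 5 lower.

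**Figure D1:**
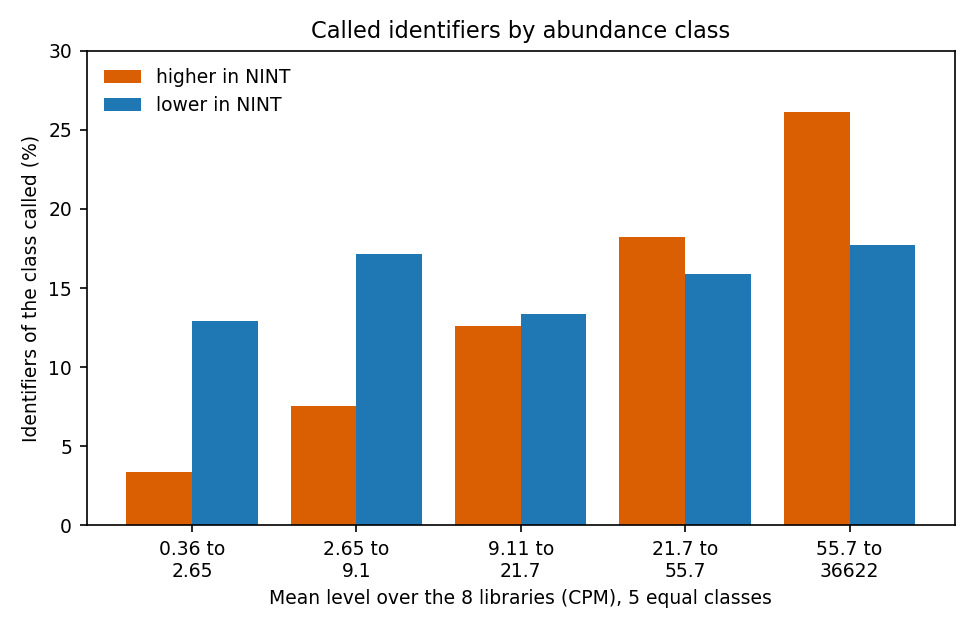
Percentage of tested identifiers called higher (orange) or lower (blue) in NINT against SAL, in 5 equal classes of mean level in CPM over the 8 libraries. Higher calls number 99 in the lowest class and 766 in the highest with TMM factors; with library size as the scaling, lower calls are the majority in every class.

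Consistency over animals followed the calls closely. For 4330 of the tested identifiers (29.5%) the NINT animals lay entirely above or below the SAL animals, 2047 higher (14.0%) and 2283 lower (15.6%). This split too depended on the scaling, with 1123 higher and 3102 lower when libraries were scaled by size alone. Among called identifiers 3601 (84.8%) showed no overlap and 647 did overlap, while 729 without overlap were not called. Wide gaps were rare: among the 10614 identifiers with at least 5 CPM in either group, the lowest NINT animal exceeded the highest SAL animal by more than 1.5-fold for 92 and by more than 2-fold for 20, and the lowest SAL animal exceeded the highest NINT animal by more than 1.5-fold for 76 and by more than 2-fold for 4. NINT replicate 2 lay nearest to the SAL animals most often, for 822 of the 1990 higher and 1103 of the 2258 lower identifiers, values that describe the calls and do not test them. Over the fits that each left out 1 animal, 3088 to 4139 identifiers were called, and 2630 of the 4248 (61.9%) were called in all 8 such fits.

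A group of apparent large falls rested on 1 animal. In NINT against SAL, 13 identifiers had a log2 fold change of -2 or lower without being called, from -4.74 to -2.25. In all 13 the highest level was that of SAL replicate 3, which held 66.9% to 95.9% of the sum over the 8 animals. Without this animal their log2 fold changes ran from -0.34 to 3.25, and 2 were called. By contrast the 12 largest falls that were called, had at least 5 CPM and no overlap between animals ranged from 1.45 to 2.10 in size.

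The 2 largest rises under the same conditions were found at low levels in saline lung. ENSRNOG00000023068 was near the detection limit in SAL, at 0.409, 0.266, 0.111 and 0.153 CPM, and stood at 6.42, 1.32, 8.62 and 6.69 CPM in the 4 NINT animals (log2 fold change 4.59, SE 0.61, edgeR adjusted p = 0.000524). With SAL counts of 7, 5, 2 and 3 it passed the filter on low counts only through the NINT animals, and it was not tested where at least 10 counts were required in every library. Its BLM levels of 2.62, 3.15, 1.46 and 1.01 CPM lay between the SAL animals and the 3 highest NINT animals. ENSRNOG00000038132 stood at 0.642, 2.66, 0.943 and 3.07 CPM in SAL and at 34.5, 19.4, 42.6 and 27.6 CPM in NINT (log2 fold change 4.06, SE 0.39, edgeR adjusted p = 0.000121). Every NINT animal was above every animal of both other groups, with BLM at 0.354 to 2.36 CPM.

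The 2 largest falls were smaller in size. ENSRNOG00000037371 fell from 3.68, 4.84, 7.49 and 8.23 CPM in SAL to 0.272, 2.13, 1.39 and 1.80 CPM in NINT (log2 fold change -2.10, SE 0.42, edgeR adjusted p = 0.00416), a call that was lost in the fit of all 12 libraries (edgeR adjusted p = 0.0675); it was not tested either where every library needed at least 10 counts. ENSRNOG00000012980 fell from 11.4, 10.3, 5.22 and 5.98 CPM to 2.77, 2.60, 2.58 and 2.27 CPM (log2 fold change -1.68, SE 0.25, edgeR adjusted p = 0.000928). The NINT animals were close to each other in this identifier, while SAL replicates 1 and 2 stood above SAL replicates 3 and 4. BLM animals stood at 0.0505 to 2.24 CPM in ENSRNOG00000037371 and at 0.610 to 4.78 CPM in ENSRNOG00000012980. In both they overlapped with NINT and lay below every SAL animal.

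**Figure D2:**
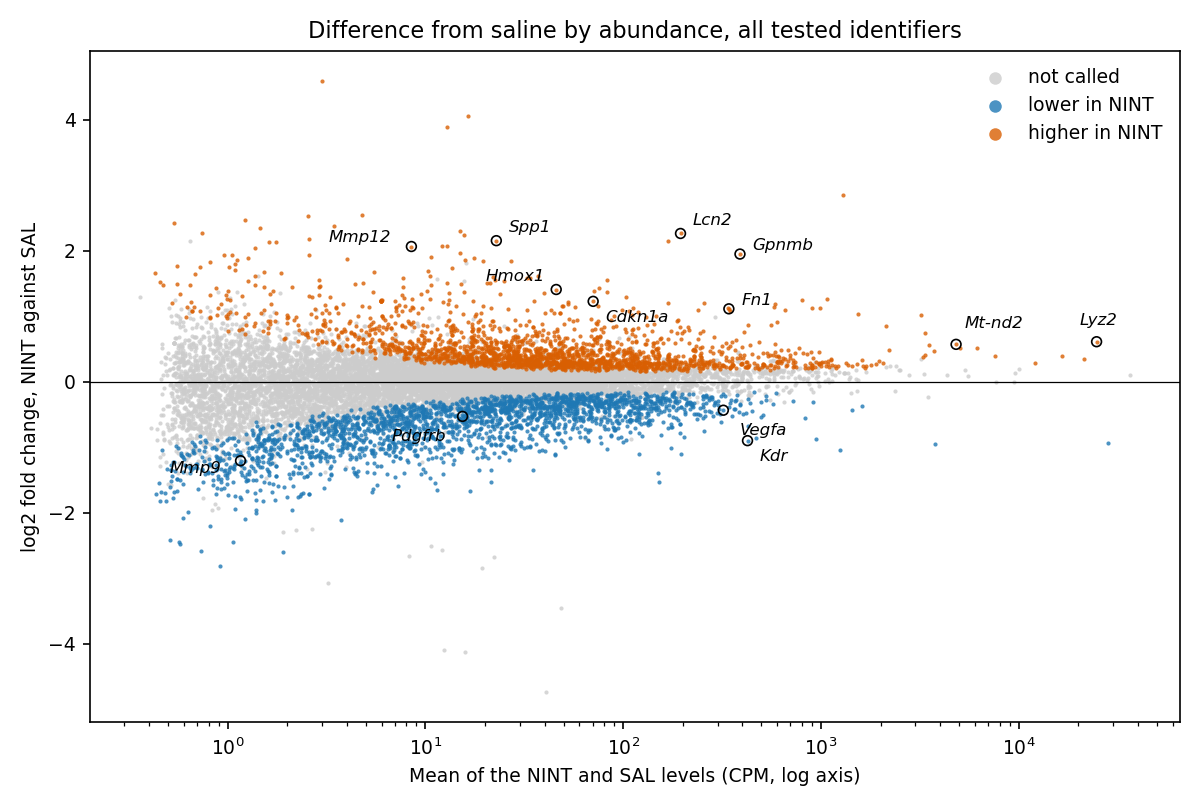
Log2 fold change of NINT against SAL for each of the 14664 tested identifiers against its mean level in CPM (log axis), with identifiers called higher in orange, called lower in blue and not called in grey; circles mark named genes. Lcn2, Spp1 and Mmp12 lie above 2, Kdr lies at -0.90, and the grey points below -2 are the 13 falls carried by SAL replicate 3.

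Of the 74 named genes that passed the filter on low counts, 26 were called higher, 11 lower and 37 neither, against 29.0% called among all tested identifiers. Their median log2 fold change was 0.20, and that of all tested identifiers 0.02. The genes were picked because an identifier could be recalled, and many belong to the response to bleomycin, so that this count is a description of the chosen genes. The groups below were formed after the data had been looked at, so that counts within them are descriptions too.

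Among the groups, which were formed after the data had been looked at, macrophage genes had the largest median log2 fold change, 1.56. All 4 were called higher, against 13.6% of all tested identifiers. Of the other macrophage markers of the lists only Mmp12 had a recalled identifier, and it is given below with the proteases. Lyz2 was in none of the macrophage lists. These 4 genes therefore do not stand for the cell type. Gpnmb (ENSRNOG00000008816), a glycoprotein of lipid-laden and fibrosis-associated macrophages, stood at 158, 147, 183 and 153 CPM in the SAL animals and at 532, 412, 835 and 696 CPM in the NINT animals, a 3.87-fold rise (log2 fold change 1.95, SE 0.18, edgeR adjusted p = 0.00012). Spp1 (ENSRNOG00000043451), which encodes osteopontin, rose 4.46-fold, from 8.18, 13.03, 6.94 and 5.27 CPM to 24.6, 23.6, 49.7 and 51.2 CPM (log2 fold change 2.16, SE 0.32, edgeR adjusted p = 0.000877). For both genes NINT replicates 3 and 4 were the highest, and no NINT animal overlapped with a SAL animal. In the BLM animals Gpnmb lay at 573 to 844 CPM, overlapping with NINT, whereas Spp1 lay at 74.7 to 254 CPM, above every NINT animal. Cd68 (ENSRNOG00000037563), a lysosomal membrane protein of macrophages, rose from 45.95 ± 3.96 CPM to 103 ± 17.6 CPM (SD, n = 4 each; log2 fold change 1.16, SE 0.12, edgeR adjusted p = 0.000142). Lyz2 (ENSRNOG00000005825), a lysozyme of myeloid and type 2 alveolar cells, was the most abundant gene named and rose from between 17976 and 20855 CPM to between 24614 and 35929.8 CPM (log2 fold change 0.61, SE 0.11, edgeR adjusted p = 0.00268). The summed level of the 4 genes, most of it Lyz2, was 18180.2 to 21058 CPM in SAL and 25131 to 36939 CPM in NINT. In a homogenate, more cells of a type and more RNA per cell cannot be told apart, and this holds for fewer cells and less RNA too.

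Among the matrix genes given here and in the next paragraph, fibronectin stood furthest above saline, and the fibrillar collagens lay closer to saline. Spp1, listed as a matrix gene too but grouped above with macrophage genes, rose more (log2 fold change 2.16). Most matrix genes of the lists had no recalled identifier. Fn1 (ENSRNOG00000014288) encodes fibronectin, an early scaffold of scar matrix, and stood at 214, 247, 188 and 215 CPM in SAL and 413, 469, 459 and 531 CPM in NINT (log2 fold change 1.11, SE 0.09, edgeR adjusted p = 7.65e-05), so that each NINT animal was above each SAL animal. In BLM its levels of 483, 425, 1526 and 739 CPM overlapped with those of NINT. Ccn2 (ENSRNOG00000015036), connective tissue growth factor and a target of TGF-beta, rose from 131, 116, 126 and 143 CPM to 211, 249, 214 and 309.9 CPM (log2 fold change 0.93, SE 0.12, edgeR adjusted p = 0.000406). The fibrillar collagens moved less. Col3a1 (ENSRNOG00000003357) stood at 517, 555, 559 and 502 CPM in SAL and 595, 757, 702 and 718 CPM in NINT (log2 fold change 0.38, SE 0.08, edgeR adjusted p = 0.00525), with no overlap. Col1a1 (ENSRNOG00000003897) stood at 288, 331, 325 and 283 CPM and 403, 545, 328 and 443 CPM (log2 fold change 0.49, SE 0.13, edgeR adjusted p = 0.0164); NINT replicate 3 lay inside the range of the SAL animals, and the call was lost with library size as the scaling (edgeR adjusted p = 0.0528) and in the fit of all 12 libraries (edgeR adjusted p = 0.525). Col1a2 (ENSRNOG00000011292) was not called, at 402 ± 20.6 CPM in SAL and 445 ± 75.4 CPM in NINT (SD, n = 4 each). BLM levels were above every NINT animal for all 3 collagens, at 604 to 3518 CPM for Col1a1, 556 to 1604 CPM for Col1a2 and 888 to 2560.2 CPM for Col3a1. The call of Col3a1 was also lost in the fit of all 12 libraries (edgeR adjusted p = 0.436), and that of Ccn2 (edgeR adjusted p = 0.087).

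Several matrix genes stood below saline levels. Postn (ENSRNOG00000012660), periostin, fell from 149, 142, 137 and 148 CPM to 91.2, 109.6, 119 and 115 CPM (log2 fold change -0.41, SE 0.08, edgeR adjusted p = 0.0042), and every NINT animal was below every animal of both other groups, with BLM at 135 to 166 CPM. Tnc (ENSRNOG00000058645), the matricellular protein tenascin C, fell from 28.2 ± 5.34 CPM to 19.3 ± 3.40 CPM (log2 fold change -0.55, SE 0.15, edgeR adjusted p = 0.0204), and Dcn (ENSRNOG00000004554), the small proteoglycan decorin, from 179 ± 36.02 CPM to 131 ± 17.9 CPM (log2 fold change -0.46, SE 0.13, edgeR adjusted p = 0.026; SD, n = 4 each). For both genes the animals of the groups overlapped. The call of Tnc was lost without SAL replicate 4, and that of Dcn without SAL replicate 3, NINT replicate 1 or NINT replicate 3. Sparc (ENSRNOG00000012840), Eln (ENSRNOG00000001469) and Lox (ENSRNOG00000014426), which encode a collagen-binding protein, elastin and a collagen crosslinking enzyme, were not called, with log2 fold changes of -0.23, -0.04 and -0.30. Without SAL replicate 1 Lox was called lower, and so was Sparc without NINT replicate 4, with library size as the scaling, by the Wald test of DESeq2 and by limma voom.

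Among proteases and their inhibitors, 2 of 5 were called higher and 1 lower, against 13.6% and 15.4% of all tested identifiers, and 2 of these 3 calls were lost in several alternatives. Mmp12 (ENSRNOG00000030187), the elastase of macrophages, stood at 3.68, 3.14, 3.05 and 3.17 CPM in SAL and 11.8, 5.15, 16.2 and 21.7 CPM in NINT (log2 fold change 2.07, SE 0.35, edgeR adjusted p = 0.00178). The SAL animals were nearly alike, whereas NINT replicate 2 was the lowest and replicate 4 the highest of a wide range. Timp1 (ENSRNOG00000010208), an inhibitor of matrix metalloproteinases, was called higher (37.4 to 45.1 CPM in SAL, 42.8 to 60.4 CPM in NINT; log2 fold change 0.37, SE 0.11, edgeR adjusted p = 0.0261), but the groups overlapped. That call was lost without SAL replicate 1, 2 or 4 and without NINT replicate 2 or 4. Mmp9 (ENSRNOG00000017539), a gelatinase of neutrophils and macrophages, was called lower at a low level (1.63 ± 0.519 CPM and 0.695 ± 0.250 CPM; SD, n = 4 each; log2 fold change -1.21, SE 0.33, edgeR adjusted p = 0.0198), and not without SAL replicate 2 or 3. Mmp2 (ENSRNOG00000016695) and Mmp14 (ENSRNOG00000010947) were not called, with log2 fold changes of 0.18 and 0.15.

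**Figure D3:**
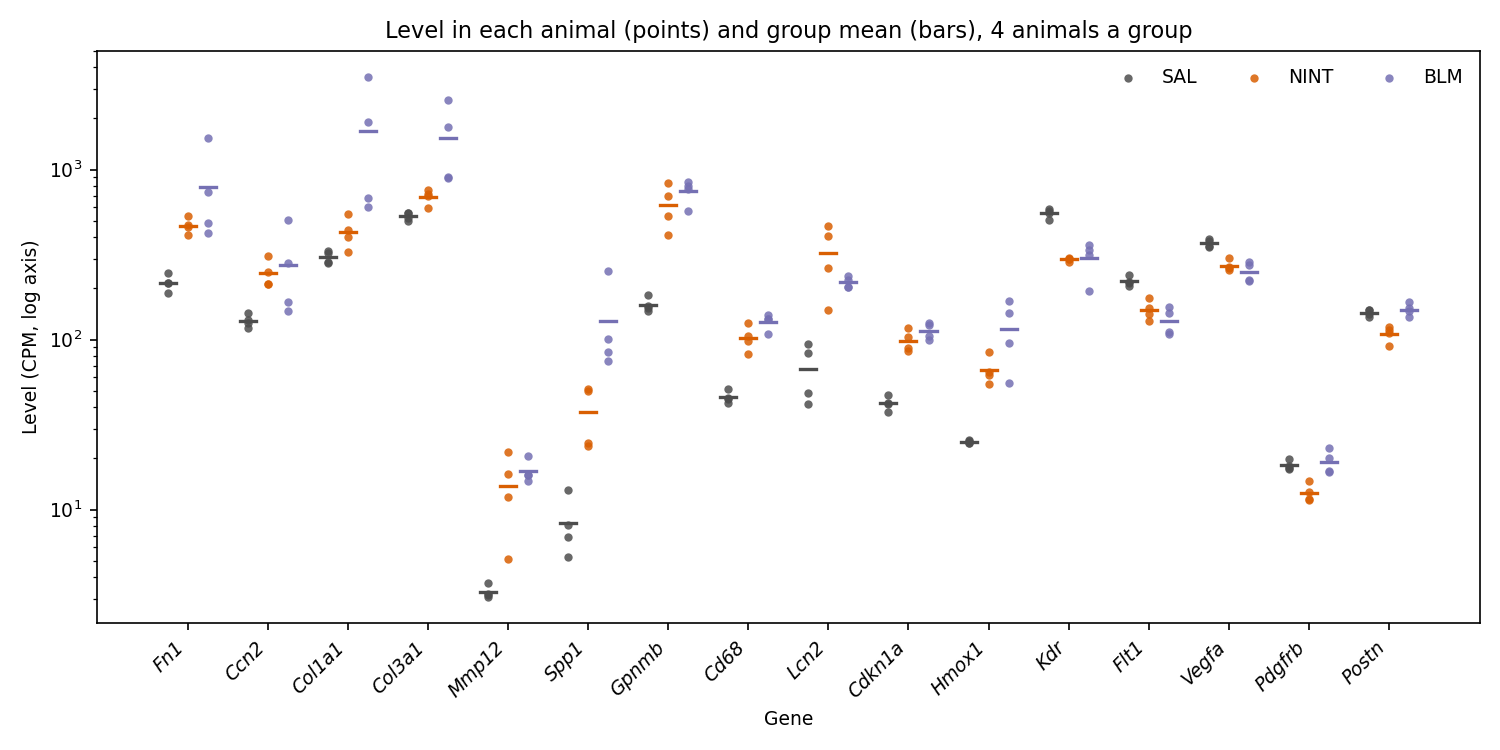
Level in CPM (log axis) of 16 named genes in each SAL (grey), NINT (orange) and BLM (purple) animal, with a bar at the mean of each group of 4. NINT animals lie above all SAL animals for Gpnmb, Spp1, Fn1, Hmox1 and Cdkn1a and below them for Kdr, Flt1, Vegfa, Pdgfrb and Postn, while Col1a1 overlaps.

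Kdr (ENSRNOG00000046829), Flt1 (ENSRNOG00000000940) and Pdgfrb (ENSRNOG00000018461) encode receptors that nintedanib inhibits, and Vegfa (ENSRNOG00000019598) encodes a ligand of the first 2. All 4 were called lower in NINT than in SAL (15.4% of all tested identifiers were), with a median log2 fold change of -0.54. The group was formed after the data had been looked at, and identifiers recalled for Pdgfra and Fgfr1 were left out. No FGF receptor and no other target receptor or ligand of the lists was among the named genes. These 4 therefore do not stand for the drug's targets as a whole. Kdr, the main VEGF receptor of endothelium, stood at 571, 503, 553 and 586 CPM in the SAL animals and at 299.8, 301, 299 and 288 CPM in the NINT animals, 1.86-fold lower (log2 fold change -0.90, SE 0.06, edgeR adjusted p = 4.39e-05). The NINT animals were within a narrow range, and no lower call among the named genes and identifiers that met the naming conditions had a smaller p. BLM animals stood at 359.8, 337, 193 and 315 CPM and overlapped with NINT. Flt1, the other VEGF receptor named here, fell from between 207 and 239.7 CPM to between 129 and 176 CPM (log2 fold change -0.55, SE 0.09, edgeR adjusted p = 0.00159). Vegfa fell from between 349 and 391 CPM to between 258 and 304 CPM (log2 fold change -0.43, SE 0.07, edgeR adjusted p = 0.00126). Pdgfrb, the PDGF receptor of pericytes and fibroblasts, fell from 18.05, 17.2, 17.6 and 19.9 CPM to 12.7, 14.7, 11.4 and 11.6 CPM (log2 fold change -0.53, SE 0.10, edgeR adjusted p = 0.00389). Its BLM levels of 16.6 to 23.1 CPM were above every NINT animal and overlapped with SAL. All 4 genes were called lower in each of the 17 alternatives run.

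Of 3 other endothelial genes, 1 was called lower and none higher, against 15.4% and 13.6% of all tested identifiers. In either direction 33.3% were called, near the 29.0% of all tested identifiers. The difference of these 3 genes from Kdr and Flt1 was not tested. Vwf (ENSRNOG00000019689), the von Willebrand factor of endothelial granules, stood at 154 to 211 CPM in SAL and 162 to 188 CPM in NINT (log2 fold change -0.06, SE 0.10, edgeR adjusted p = 0.67). Nos3 (ENSRNOG00000009348), the endothelial nitric oxide synthase, was not called either (log2 fold change 0.20, SE 0.25, edgeR adjusted p = 0.583). Cav1 (ENSRNOG00000056836), which coats caveolae of endothelial and type 1 cells, was lower by a small margin, at 576 ± 22.9 CPM and 474 ± 63.3 CPM (SD, n = 4 each; log2 fold change -0.28, SE 0.09, edgeR adjusted p = 0.0351), a call lost in 5 of the 8 fits that left out 1 animal. The summed level of the 3 genes, most of it Cav1, was 719 to 828 CPM in SAL and 581 to 746 CPM in NINT. Identifiers recalled for Pecam1 and Cdh5 were left out, so that these 3 genes do not stand for endothelium. The part of endothelial cell number in the fall of Kdr and Flt1 was not tested. Icam1 (ENSRNOG00000020679) and Vcam1 (ENSRNOG00000014333), adhesion molecules of activated endothelium, were not called, with log2 fold changes of 0.02 each.

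Of the stress response genes, 5 of 6 were called higher, against 13.6% of all tested identifiers. Cdkn1a (ENSRNOG00000000521), the cell cycle inhibitor p21 and a target of p53, stood at 37.4, 41.7, 47.1 and 42.3 CPM in SAL and 104, 117, 85.3 and 89.1 CPM in NINT (log2 fold change 1.23, SE 0.11, edgeR adjusted p = 8.51e-05). Hmox1 (ENSRNOG00000014117), which degrades heme, stood at 25.2, 25.5, 24.8 and 24.7 CPM and 61.98, 55.03, 84.5 and 64.9 CPM (log2 fold change 1.41, SE 0.12, edgeR adjusted p = 6.83e-05). For both genes the groups were far apart relative to their spread, and BLM levels of 99.9 to 126 CPM and 55.3 to 169 CPM overlapped with NINT. Nqo1 (ENSRNOG00000012772), a quinone reductase induced through Nrf2, Sod2 (ENSRNOG00000019048), the mitochondrial superoxide dismutase, and Cat (ENSRNOG00000008364), catalase, were higher by log2 fold changes of 0.49, 0.64 and 0.27 (SE 0.09, 0.10 and 0.07; edgeR adjusted p = 0.00279, 0.000877 and 0.0165). Sod1 (ENSRNOG00000002115) was not called. The call of Cat was lost without SAL replicate 3, NINT replicate 1 or NINT replicate 3.

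Of the inflammatory mediators, 2 of the 5 tested were called higher, against 13.6% of all tested identifiers. Lcn2 (ENSRNOG00000013973), the iron-binding lipocalin of injured epithelium and neutrophils, rose 4.81-fold, from 41.8, 83.8, 93.8 and 48.8 CPM in SAL to 150.3, 264, 467 and 409 CPM in NINT (log2 fold change 2.27, SE 0.35, edgeR adjusted p = 0.00106). The 4 BLM animals at 223, 235, 204 and 204 CPM were all between the lowest and the highest NINT animal. Ccl2 (ENSRNOG00000007159), a chemokine for monocytes, rose from 2.80, 3.62, 2.77 and 3.02 CPM to 4.89, 7.71, 5.52 and 6.29 CPM (log2 fold change 1.00, SE 0.17, edgeR adjusted p = 0.0021), lost in the fit of all 12 libraries (edgeR adjusted p = 0.125). Il1b (ENSRNOG00000004649), Tnf (ENSRNOG00000055156) and Cxcl1 (ENSRNOG00000002802) were not called, with log2 fold changes of -0.42, 0.05 and 0.16, and Il6 (ENSRNOG00000010278) did not pass the filter, at no more than 0.163 CPM in any NINT animal. Il1b was called lower with library size as the scaling, by the Wald test of DESeq2, with no filter on low counts, with a block for the replicate number and without SAL replicate 3.

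The remaining named genes included few large differences. The mitotic genes Mki67 (ENSRNOG00000028137), Top2a (ENSRNOG00000053047) and Cdk1 (ENSRNOG00000000632) were not called, with log2 fold changes of -0.32, -0.30 and 0.36. NINT replicate 2 was the highest NINT animal in all 3, and without it Mki67 and Top2a were called lower (log2 fold changes -0.55 and -0.54, edgeR adjusted p = 0.0264 and 0.00655). Igf1 (ENSRNOG00000004517), a growth factor made by macrophages and fibroblasts, rose from between 137 and 172 CPM to between 201 and 328 CPM (log2 fold change 0.66, SE 0.15, edgeR adjusted p = 0.00681), while Tgfb1 (ENSRNOG00000020652) was not called (log2 fold change 0.20). Egr1 (ENSRNOG00000019422), an immediate early transcription factor, rose from 19.4 ± 2.01 CPM to 37.2 ± 7.64 CPM (SD, n = 4 each; log2 fold change 0.94, SE 0.14, edgeR adjusted p = 0.000843), and Fos (ENSRNOG00000008015) was not called. Sftpa1 rose by 0.39 on the log2 scale (SE 0.08, edgeR adjusted p = 0.00411) and Ager was not called. The intermediate filament gene Vim (ENSRNOG00000018087) was called higher (log2 fold change 0.36, SE 0.12, edgeR adjusted p = 0.043) with overlapping groups, a call lost in 7 of the 8 fits that left out 1 animal. Acta2 (ENSRNOG00000058039) and Des (ENSRNOG00000019810), markers of smooth muscle and myofibroblasts, were not called, with log2 fold changes of 0.37 and 0.43. Acta2 was called higher without SAL replicate 3 or NINT replicate 3, and Des without SAL replicate 3. The clock genes Arntl (ENSRNOG00000014448), Per2 (ENSRNOG00000020254), Nr1d1 (ENSRNOG00000009329) and Dbp (ENSRNOG00000021027) and the drug-metabolising genes Cyp1a1 (ENSRNOG00000019500) and Cyp1b1 (ENSRNOG00000040287) were not called. Without NINT replicate 2 Per2 was called higher and Cyp1b1 lower, and Cyp1b1 was also called lower in 3 other alternatives.

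Identifiers recalled as reference genes differed in opposite directions. Actb (ENSRNOG00000034254), beta-actin, fell from 485, 452, 573 and 923 CPM to 325, 394, 314 and 302 CPM (log2 fold change -0.86, SE 0.19, edgeR adjusted p = 0.0075), with SAL replicate 4 well above the other animals. Gapdh (ENSRNOG00000018630) was higher in NINT (15.98 ± 2.52 CPM and 22.9 ± 3.59 CPM; SD, n = 4 each; log2 fold change 0.52, SE 0.14, edgeR adjusted p = 0.016), a call lost without NINT replicate 3 and in the fit of all 12 libraries, and B2m (ENSRNOG00000017123) was not called. Both Actb and Gapdh have near-identical copies elsewhere in mammalian genomes, with which they could share reads, so that their values are uncertain. The level of the identifier recalled as Gapdh is low for a transcript that is abundant in most tissues, and whether the name or the counting lies behind this was not tested.

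Of the 13 identifiers recalled as mitochondrial protein-coding genes, 4 were called higher and 1 lower, against 13.6% and 15.4% of all tested identifiers. In either direction 38.5% were called, against 29.0% of all tested identifiers, and the median log2 fold change was 0.18. Mt-nd2 (ENSRNOG00000031033) and Mt-nd1 (ENSRNOG00000030644), subunits of respiratory complex I, rose from between 3793 and 4013 CPM to between 5282 and 6234 CPM (log2 fold change 0.57, SE 0.07, edgeR adjusted p = 0.000359) and from between 4571 and 5358 CPM to between 7029 and 7608 CPM (log2 fold change 0.52, SE 0.07, edgeR adjusted p = 0.000679). Neither overlapped between the groups. The cytochrome oxidase genes Mt-co1 (ENSRNOG00000034234), Mt-co2 (ENSRNOG00000030371) and Mt-co3 (ENSRNOG00000030700) were not called, with log2 fold changes of 0.11, 0.00 and 0.00. Nor were Mt-cyb (ENSRNOG00000031766), Mt-nd3 (ENSRNOG00000033615), Mt-nd4l (ENSRNOG00000031053), Mt-nd5 (ENSRNOG00000029971) and Mt-atp8 (ENSRNOG00000033299), the first of which encodes cytochrome b. Mt-nd4 (ENSRNOG00000029707) and Mt-atp6 (ENSRNOG00000031979) were called higher, at log2 fold changes of 0.40 and 0.35, and lost the call with library size as the scaling, in the fit of all 12 libraries and without several single animals. Mt-nd6 (ENSRNOG00000029042), the gene called lower, lies on the opposite strand to the others (log2 fold change -0.85), and whether the counting used strand is not stated. The share of all counts in these 13 genes was 6.32% to 7.81% in SAL and 7.70% to 8.59% in NINT.

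**Figure D4:**
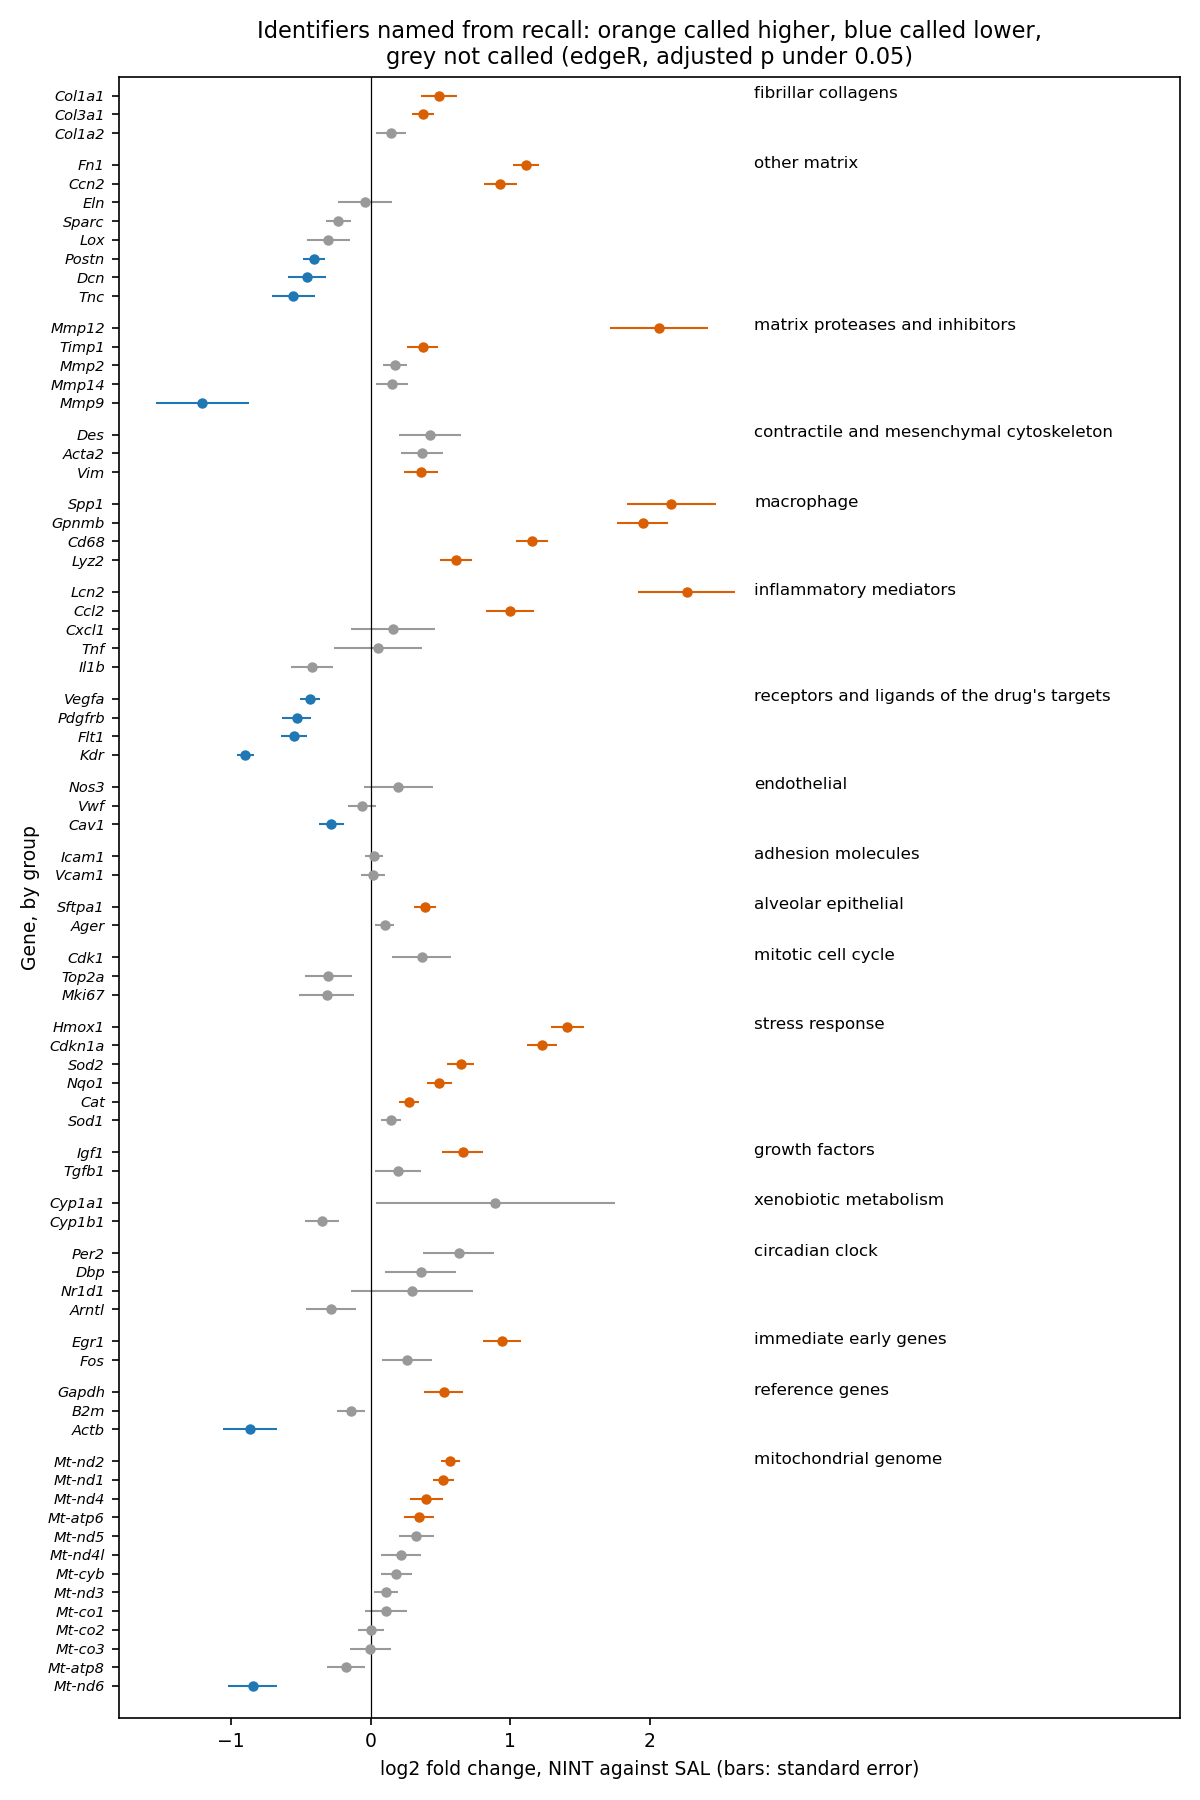
Log2 fold change of NINT against SAL (points) with its standard error (bars) for the 74 named genes tested, by group; orange genes were called higher, blue ones lower and grey ones neither in edgeR's quasi-likelihood test. All 4 macrophage genes lie to the right of 0, and Kdr, Flt1, Pdgfrb and Vegfa lie to its left.

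Calls that held in every setting tried were a smaller set. Across the main test and 17 alternatives, 1175 of the 4248 identifiers (27.7%) were called each time, 586 higher and 589 lower. The fit of all 12 libraries limited this set most, since it shared 1378 calls with the main test, and the other alternatives reduced it further. An identifier that an alternative did not test counted as not called there. The filter of at least 10 counts in every library left 13480 of the 14664 to test. Of the 1175, 249 had a log2 fold change of at least 1 in size, 136 higher and 113 lower. The main test had called 212 higher and 437 lower at that size, so a larger part of rises than of falls was kept. Of these main calls, 65 rises and 260 falls lay in the lowest abundance class. The part of low counts in this difference was not tested, and the split alone does not show which direction is firmer. No overlap between the animals was seen for 1158. Among the 1175 were 21 of the named genes, including Gpnmb, Spp1, Cd68, Lcn2, Mmp12, Fn1, Hmox1 and Cdkn1a on the higher side and Kdr, Flt1, Pdgfrb, Vegfa and Postn on the lower side. The calls of Tnc, Dcn, Timp1, Mmp9, Cav1, Cat, Vim, Actb and Mt-nd6 were among those lost in the fit of all 12 libraries, and those of Timp1, Cat and Vim also with library size as the scaling.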

How the data were processed

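The deposited values are unnormalised read counts per Ensembl gene identifier, 1 column for each of the 12 animals. The submitters' processing notes name FastQC, STAR and HTSeq and the genome build rn6; versions, the annotation release and the use of strand are not given in the sources used here. Columns were matched to animals by name, and 7 empty columns without a name were not used. Replicates are separate animals, per the labels.

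Counts were analysed in R 4.3.3 with edgeR 4.0.16: filterByExpr over the NINT and SAL groups (minimum count 10, minimum total count 15), TMM factors and the quasi-likelihood test (glmQLFit, glmQLFTest) without covariates, fitted to the 8 libraries alone. Benjamini-Hochberg adjustment ran over all 14664 identifiers tested, and an identifier was called under 0.05. Standard errors were derived as the absolute log2 fold change divided by the square root of F. BLM levels were put on the scale of the 8 libraries by TMM against the same reference library. Alternatives used DESeq2 1.42.0 and limma 3.58.1 (voom), other scalings and filters, all 12 libraries, a block for the replicate number, and each animal left out in turn.

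Identifiers printed without a name are the 2 largest rises and the 2 largest falls among those called, with a mean of at least 5 CPM in NINT or SAL and no overlap between animals (3054 identifiers). The rule also asked for the 12 largest changes, the 5 most abundant and the 3 of smallest p in each direction that have a name. Of the 12 largest changes in each direction only Lcn2 and Spp1 had one. Of the rest, the 2 largest in each direction are printed by identifier, a few are described by level alone and the others are not described. The comparison, the genes and the lists were chosen with earlier results of these data known, and the named genes were grouped by role after the data had been looked at. Names were recalled without a table to check them and were screened on mean level (107 pairs recalled, 75 kept), so they are unverified. A further recalled gene is not reported here. In data simulated for NINT against SAL (14664 identifiers, 200 of them changed), edgeR called 52% of those changed 1.5-fold and 71% of those changed 2-fold, and 6.11% of its calls were false. Far fewer identifiers were changed there than the 4248 called in the data, and the adjusted p depends on that share. The rates therefore do not carry over to the comparison made here.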

Additional observations from a re-analysis of the deposited data

Results flagged for a closer look

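Each library measure and each named gene or printed identifier was searched, within the 4 SAL and the 4 NINT animals, for 1 animal far from the other 3. Of 166 such sets 9 had one, where chance gives about 8.3 (1 in 20).

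In SAL replicate 3, Mmp14 stood at 62.4 CPM with the other 3 at 51.4 to 53.3 CPM, Timp1 at 45.1 CPM against 37.4 to 38.1 CPM, and Des at 52.6 CPM against 26.3 to 30.02 CPM. In SAL replicate 2, Sod2 stood at 122.1 CPM against 94.99 to 98.4 CPM and B2m at 2634 CPM against 2426 to 2434 CPM. In NINT replicate 2, Mki67 stood at 20.3 CPM against 11.96 to 12.7 CPM and Top2a at 31.5 CPM against 17.9 to 19.96 CPM. In NINT replicate 3, Igf1 stood at 327.7 CPM against 201 to 220.0 CPM. In NINT replicate 4, Kdr stood at 287.5 CPM against 299 to 300.7 CPM, a difference that is small beside the distance to the SAL animals.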

How the results depend on the processing

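The number called, 4248, lay within 1.5 times of this value in all alternatives but the fit of all 12 libraries, which called 1391 (635 higher, 756 lower, 364 past 1 in log2 size); 1378 of them were among the 4248. Scaled by library size alone, 1053 were higher. Leaving out 1 animal gave 3088 to 4139 calls, 1372 to 1812 higher, 1716 to 2377 lower and 532 to 802 of at least 1. Same-numbered animals did not deviate together (none of 4 pairs correlated over 0.1, and 1 of 4 NINT animals correlated best with its own number), and the replicate block gave 3488 calls.

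The number of identifiers without overlap was 4077 to 4648 over the other scalings and filters; with library size it was 1123 higher and 3102 lower, against 2047 and 2283. Leave-one-out values of the library measures were added after seeing the data. The difference in total count was 1404920 to 2620450, the latter without NINT replicate 4 (exact permutation p = 0.0286); that in detected identifiers was -277.75 to -110.75 and that in the share of the top 10 -0.346 to -0.0120 percentage points. Of 41 called genes and identifiers named, 24 kept the call in each alternative that tested them, 17 lost it in at least 1, and none reversed; 11 of the other 37 gained a call in at least 1. The standard error, 0.30 on the log2 scale at the median of the least abundant class, limits what could be called there.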

Other observations

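Some identifiers without a name here stood out by their level. The most abundant identifier called lower, without overlap between animals and with a log2 fold change of at least 0.5 in size, held 38567, 32107, 39599 and 37846 CPM in the SAL animals and 18527, 24241, 17849 and 16568 CPM in the NINT animals (log2 fold change -0.94, SE 0.12, edgeR adjusted p = 0.000516). Its BLM levels of 2961 to 21170.5 CPM were below every SAL animal. A rise of 2.85 on the log2 scale (SE 0.34, edgeR adjusted p = 0.000305) was carried by an identifier at 212 to 359.7 CPM in SAL and 932 to 3578 CPM in NINT, with NINT replicate 2 the lowest of its group. In this identifier the BLM animals stood at 3071 to 4975 CPM, above every SAL animal.

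In 10 of the 12 largest rises every BLM animal lay above every SAL animal, and in 11 of the 12 largest falls below. An exception beside ENSRNOG00000038132 among these rises lay above all animals of both other groups in NINT. It stood at 15.6 to 41.0 CPM in NINT, 4.05 to 6.37 CPM in SAL and 0.907 to 4.37 CPM in BLM. The higher identifier of smallest p stood at 1.29 to 2.29 CPM in SAL, 19.3 to 26.7 CPM in NINT and 20.4 to 29.9 CPM in BLM (log2 fold change 3.90, SE 0.18, edgeR adjusted p = 3.15e-06). These were chosen after their values were seen.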
